A study of Mus musculus with 4 samples.

Results

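The 10 heat-shock chaperone genes described here are Hspa8, Hsp90ab1, Hspa5, Hspa9, Hspd1, Hspe1, Hsp90aa1, Hspa1a, Hspa1b and Hsf1, out of 21887 protein-coding genes of the mouse autosomes, X and Y. They were chosen by name, with earlier results of these data known, and their sites were selected on measured positions, as every ATAC-seq summit inside the gene or within 10 kb of it. ATAC-seq maps open chromatin through the insertions of the transposase Tn5, and a summit is the point of strongest signal within a called peak. The cells were haematopoietic stem cells of the bone marrow, from male mice of the strain C57BL/6 with a wild type genotype, aged 8 weeks. All came from 1 gate (LSK, lacking CD34, CD48 and Flt3, positive for Slam1) and were divided by the surface receptor CD93. The CD93-positive cells gave 2 libraries and the CD93-negative cells gave 2. The labels do not state that the 2 libraries of either group stem from different mice. Femora and tibiae were pooled before sorting.

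Heat-shock proteins fold new and damaged proteins. The HSP70 family binds unfolded stretches, HSP90 completes the folding of kinases and receptors, and the Hspd1-Hspe1 chaperonin encloses proteins imported into mitochondria. Stress releases the transcription factor Hsf1, which binds heat-shock elements, made of alternating GAA and TTC units, in the promoters of inducible members. Unfolded protein in the endoplasmic reticulum instead acts on Hspa5 through ER stress elements. Haematopoietic stem cells keep protein synthesis low and are known to be sensitive to misfolded protein.

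Reference promoters, from 250 bases before to 50 bases after a listed start (RefSeq, GRCm38.p6), were matched for 5 of the 10 genes. Of these, 4 are printed, because they carry the near-identical pair, the ER chaperone and the shared chaperonin start on which the results turn. In Hspa1a (chr17:34972107-34972406, minus strand), Hspa1b (chr17:34959189-34959488, minus strand) and Hspe1 (chr1:55087898-55088197, plus strand), capitals mark pairs of heat-shock units, GAANNTTC or TTCNNGAA. In Hspa5 (chr2:34771840-34772139, plus strand) they mark the ER stress element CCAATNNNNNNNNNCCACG. All motifs were searched on both strands, and overlapping matches were kept. Only exact matches to the letters, with N as any base, were counted, so imperfect elements were not searched.
Hspa1a: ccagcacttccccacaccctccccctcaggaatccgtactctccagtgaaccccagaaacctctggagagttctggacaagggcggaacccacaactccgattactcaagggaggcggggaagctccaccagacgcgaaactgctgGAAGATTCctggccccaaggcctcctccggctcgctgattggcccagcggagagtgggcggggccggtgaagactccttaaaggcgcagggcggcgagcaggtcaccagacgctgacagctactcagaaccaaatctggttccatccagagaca
Hspa1b: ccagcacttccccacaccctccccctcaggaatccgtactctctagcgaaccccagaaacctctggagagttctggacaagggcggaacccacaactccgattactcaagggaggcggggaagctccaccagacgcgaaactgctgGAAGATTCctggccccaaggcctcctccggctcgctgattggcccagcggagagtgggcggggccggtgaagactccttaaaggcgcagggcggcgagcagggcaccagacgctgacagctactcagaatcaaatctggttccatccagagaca
Hspa5: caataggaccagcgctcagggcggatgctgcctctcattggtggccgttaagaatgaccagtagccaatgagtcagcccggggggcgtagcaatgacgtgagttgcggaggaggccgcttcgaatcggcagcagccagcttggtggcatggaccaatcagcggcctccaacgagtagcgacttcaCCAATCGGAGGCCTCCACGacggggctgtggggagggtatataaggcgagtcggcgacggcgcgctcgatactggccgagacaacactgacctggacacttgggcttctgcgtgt
Hspe1: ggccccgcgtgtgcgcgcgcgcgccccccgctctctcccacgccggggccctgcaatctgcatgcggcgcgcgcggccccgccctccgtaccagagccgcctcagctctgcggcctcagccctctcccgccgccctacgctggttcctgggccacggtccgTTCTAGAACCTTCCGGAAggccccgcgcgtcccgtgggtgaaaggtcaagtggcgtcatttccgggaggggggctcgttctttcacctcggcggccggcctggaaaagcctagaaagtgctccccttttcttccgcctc

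The Hspa1a and Hspa1b promoters were identical at 296 of 300 bases (98.7%), with a longest shared run of 201 bases. Counted from 1 at the 5′ end of the printed promoter, with the Hspa1a base first, the differences were C44T, T47C, T249G and C276T. Each copy held 1 exact heat-shock pair at the same place, 104 to 97 bases before the start. A pair occurred in 15.1% of the 32851 listed promoters, so a match of this kind is common. Neither copy held 3 exact units in a row. Runs with imperfect units were not searched, so this does not show that a heat-shock element is lacking.

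The Hspe1 promoter held a run of 4 alternating units, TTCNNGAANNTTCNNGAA, from 89 to 72 bases before the Hspe1 start. It also belongs to Hspd1, whose transcripts run the other way and have listed starts at 55087932 and 55088243 on chromosome 1. The run lay 144 to 127 bases before the first of these starts. It occurred in 8 of the 32851 listed promoters (0.0244%), and 2 of the 8 were this same site seen from Hspd1 and Hspe1. Among the other chaperone genes examined, Chordc1, an HSP90 co-chaperone, held such a run. Runs of 3 units, GAANNTTCNNGAA or TTCNNGAANNTTC, stood in 0.603% of listed promoters, among them those of Hsph1, an HSP110 chaperone, and Dnajb6, an HSP40 co-chaperone. The search for 4 units was added after the promoters had been read.

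The Hspa5 promoter held 1 exact match to the ER stress element, 65 to 47 bases before the start. It also held 4 CCAAT boxes, of which the last is part of that element, and no exact heat-shock pair. The element occurred in 39 listed promoters (0.119%), belonging to 37 genes. CCAAT alone occurred in 37.4% of listed promoters. Hspa5 and 6 genes of the chaperone lists described below were among the 37, namely Calr, Canx, Creld2, Dnajc3, Hsp90b1 and Pdia6, which act in folding in the endoplasmic reticulum. The GC content was 61.0% in Hspa1a and in Hspa1b, 61.3% in Hspa5 and 71.0% in Hspe1, beside a median of 52.7% over all listed promoters and 64.3% over the 5589 that held a summit of CD93-negative replicate 1.

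The lists differed widely in length, with 21 and 711 summits in CD93-positive replicates 1 and 2, against 7989 and 2755 in CD93-negative replicates 1 and 2. Read depth is unknown, and fewer open cells and a less open site per cell cannot be told apart. Markers of the sorted cell type were sparse. Of 15 stem cell genes, 0 and 0 had a summit within 1000 bp of a gene end in the CD93-positive libraries, against 2 (Tal1 and Lyl1) and 0 in CD93-negative replicates 1 and 2. Of 8 mature myeloid markers, 0 and 0 had such a summit in the CD93-positive libraries, against 2 (Cd68 and S100a8) and 1 in CD93-negative replicates 1 and 2. Endothelial, lymphoid and erythroid-megakaryocyte markers (8 of each) had 0 in every library. Over all protein-coding genes, the shares with such a summit were 0.0183% and 3.22% in the CD93-positive libraries, against 32.2% and 12.9%. Whether the markers fell below these shares was not tested.

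Members were listed in 3 of the 4 libraries. In the gene body or within 10 kb, a summit was listed for 0 and 7 members in CD93-positive replicates 1 and 2, against 10 and 7 in CD93-negative replicates 1 and 2. The share of all protein-coding genes with such a summit was 0.0411% and 4.62% in the CD93-positive libraries and 43.5% and 18.5% in the CD93-negative libraries. Within 1000 bp of a gene end, 0 and 6 members were reached in the CD93-positive libraries, against 10 and 6 in the CD93-negative libraries, while the shares of all genes were 0.0183% and 3.22%, against 32.2% and 12.9%. The members' shares thus stood above the background in all lists but that of CD93-positive replicate 1. The genes had been picked with such results known, so no test is given. Member counts within 1000 bp averaged 3.0 ± 4.24 in CD93-positive and 8.0 ± 2.83 in CD93-negative cells (SD, n = 2 each), and the groups met at 6. The difference in means was -5, and it was -2 without CD93-positive replicate 1, -8 without CD93-positive replicate 2 and -3 without CD93-negative replicate 1.

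Which libraries listed a member followed 4 patterns. Hspa8, Hspa5, Hspd1, Hspe1 and Hsp90aa1 had a gene-end summit in CD93-positive replicate 2 and in both CD93-negative libraries, as did 2.78% of all genes. Hspa9 had its gene-end summit in the CD93-negative libraries alone, as did 9.95% of genes. For 6 members both CD93-negative lists held a gene-end summit, which held for 12.7% of genes. Hsp90ab1, Hspa1a and Hsf1 were reached in CD93-negative replicate 1 alone, as were 19.0% of genes. Hspa1b was listed in CD93-positive replicate 2 and CD93-negative replicate 1 but not in CD93-negative replicate 2, a pattern shared by 93 genes (0.425%). CD93-positive replicate 1 had no summit on the chromosomes of 7 members, and its nearest to any member lay 5495821 bp from Hspa8. Because Hspd1 and Hspe1 share a summit, the gene-end summits numbered 5 in CD93-positive replicate 2, against 9 and 5 in CD93-negative replicates 1 and 2.

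**Figure D1:**
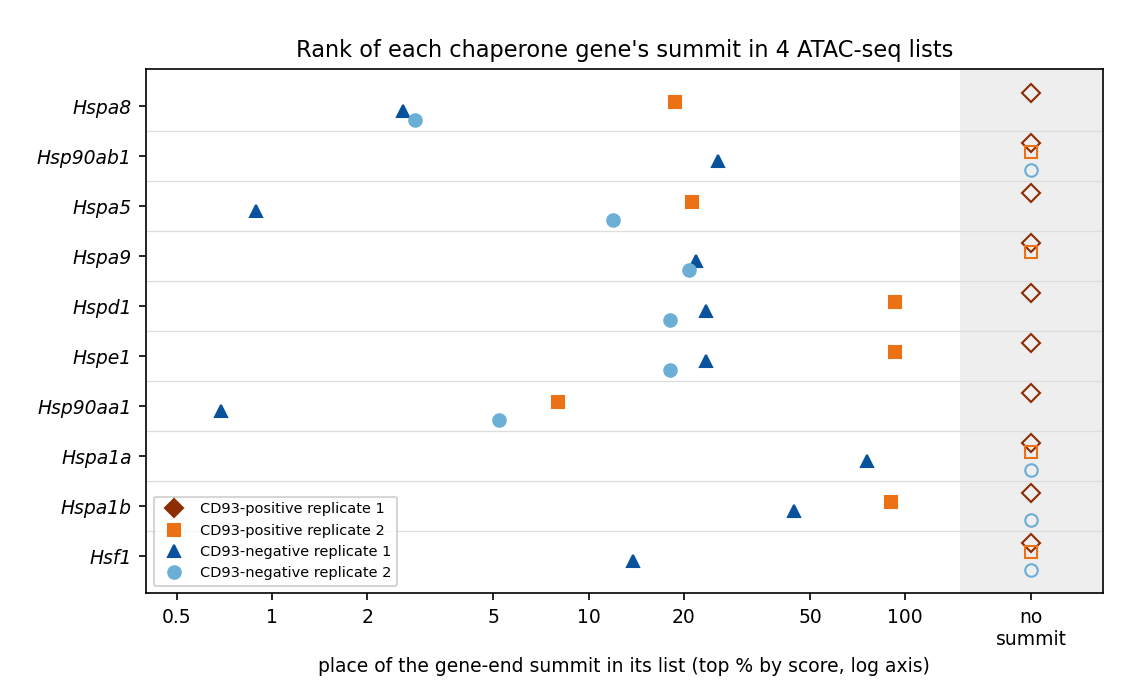
The plot gives, for each gene (rows), the place of its highest gene-end summit among all summits of a list, as the top percent by score on a log axis, with open symbols where a list had no summit within 1000 bp of a gene end. Hsp90aa1, Hspa5 and Hspa8 stood highest in all 3 lists that held them, while CD93-positive replicate 1 had no member.

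Scores, taken as −log10 of a p or q value from the authors' caller, are set against each library's own background and were compared within a list only. Over all genes with a gene-end summit, the median place was the top 53.2% in CD93-positive replicate 2, the top 43.1% in CD93-negative replicate 1 and the top 47.8% in CD93-negative replicate 2. The members present had medians of the top 55.8%, 22.7% and 15.0% in the same 3 lists. Of the members listed, 3 of 6 stood above the median gene in CD93-positive replicate 2, against 8 of 10 and 6 of 6 in CD93-negative replicates 1 and 2. Hspd1 and Hspe1 share 1 summit, which entered these medians and counts once for each gene. In CD93-positive replicate 2 the places were the top 8.02% (Hsp90aa1), 18.7% (Hspa8), 21.2% (Hspa5), 90.3% (Hspa1b) and 92.7% (Hspd1 and Hspe1). The median of the top 55.8% there lay in the wide gap between Hspa5 and Hspa1b, and depended on that double entry.

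Hspa8, which encodes the constitutive cytosolic HSP70 (HSC70), had its summit outside the lower-coordinate end of the gene (chromosome 9, 40801276 to 40805202). The summit lay at 40801125 in CD93-positive replicate 2 (score 12.5, rank 133 of 711), against 40801037 in CD93-negative replicate 1 (score 79.0, rank 207 of 7989) and 40800980 in CD93-negative replicate 2 (score 23.6, rank 78 of 2755). The 3 summits stood 151, 239 and 296 bp from the gene in that order. No other protein-coding or lncRNA gene end was nearer than 15427 bp.

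Hsp90ab1, the constitutive cytosolic HSP90, was listed only in CD93-negative replicate 1, at 45573311 on chromosome 17 (score 34.9, rank 2047), 50 bp outside the upper end of the gene (45567778 to 45573261) and 4 bp from the lncRNA Gm35399. The nearest summit lay 2836419 bp away in CD93-positive replicate 2, against 134107 bp away in CD93-negative replicate 2. In CD93-negative replicate 1, of the 500 sites nearest to it in rank, 9.0% were matched within 250 bp in CD93-positive replicate 2 and 47.2% in CD93-negative replicate 2. Most sites of its rank were thus also missing from the shorter lists.

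Hspa5, the HSP70 of the endoplasmic reticulum (BiP), had summits 116 bp before its start in CD93-positive replicate 2 (34771974 on chromosome 2, score 11.6, rank 151), against 105 bp before it in CD93-negative replicate 1 (34771985, score 95.4, rank 71) and 144 bp before it in CD93-negative replicate 2 (34771946, score 17.3, rank 329). All 3 fell inside the printed promoter, at bases 135, 146 and 107, and 51, 40 and 79 bp from the marked exact match to the ER stress element. The 3 libraries thus marked the same stretch, within 39 bp. Hspa5 ranked in the top 21.2% of the CD93-positive replicate 2 list and in the top 0.889% and 11.9% of the CD93-negative lists.

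Hspd1 and Hspe1, the large and small subunits of the mitochondrial chaperonin, overlap by 96 bp at their starts and shared 1 summit in each of 3 lists. It lay at 55087841 on chromosome 1 in CD93-positive replicate 2 (score 4.42, rank 659 of 711), against 55088134 in CD93-negative replicate 1 (score 36.7, rank 1880) and 55088216 in CD93-negative replicate 2 (score 15.2, rank 499). The CD93-positive summit was 293 bp and 375 bp from those of the CD93-negative libraries, which were 82 bp apart. Of all summits of CD93-positive replicate 2 with a CD93-negative replicate 1 summit within 1000 bp, 11 of 708 (1.55%) were at least as far from it, and the median distance was 40 bp. Against CD93-negative replicate 2, 5 of 608 (0.822%) were at least as far. The displacement was known before this comparison was made, so these shares are descriptions and not tests. The pairs were not matched for score, and this summit was among the lowest of its list.

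**Figure D2:**
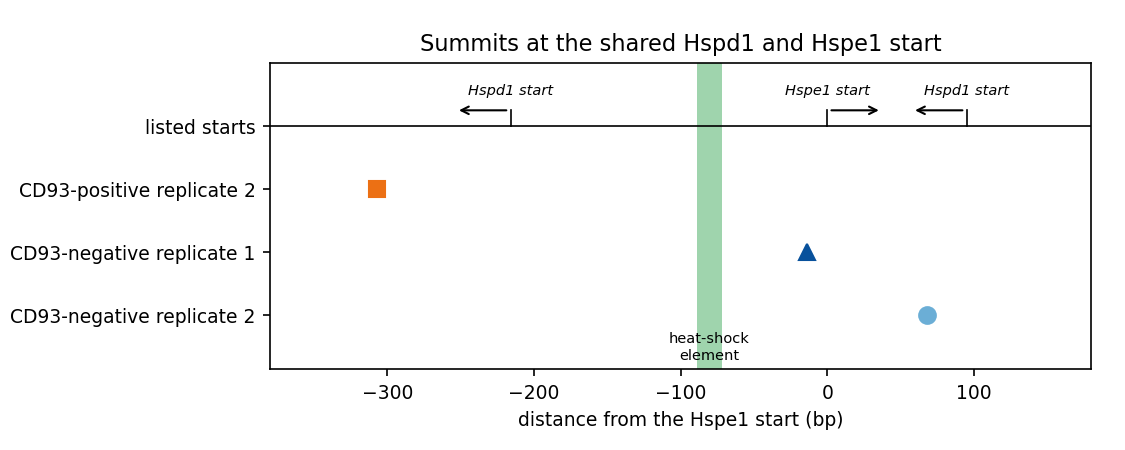
Summit positions (symbols) of 3 libraries are drawn in bp from the Hspe1 start, with the listed starts as arrows and the run of 4 heat-shock units as a green band. The CD93-positive summit lies on the Hspd1 side of the band, and both CD93-negative summits lie on the Hspe1 side.

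The CD93-positive replicate 2 summit stood 218 bp from the run of 4 heat-shock units, on the Hspd1 side, and 91 bp inside Hspd1 from its listed start at 55087932. The CD93-negative summits stood 58 and 140 bp from the run, on the Hspe1 side. They were 14 bp before and 68 bp after the Hspe1 start, and 109 and 27 bp inside Hspd1 from its other start at 55088243. With a score of 4.42, near the lowest of its list (3.09), the CD93-positive summit is among the weakest listed, and its position rests on a single library.

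**Figure D3:**
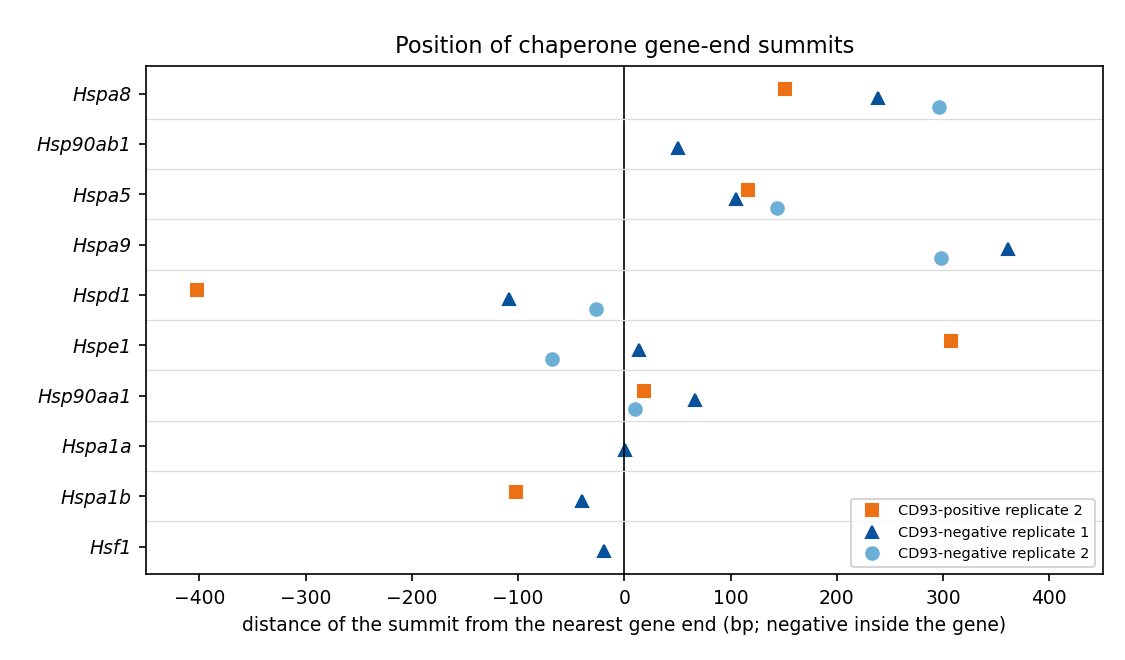
The distance of each gene-end summit from the nearest end of the gene is plotted in bp, negative inside the gene, for the 3 libraries with members. Most summits lie within 300 bp of an end, and the CD93-positive summit at Hspd1, 402 bp inside, lies farthest.

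Hsp90aa1, the stress-inducible HSP90, was the highest-ranked gene-end site among the members in CD93-positive replicate 2 and in CD93-negative replicate 1. Its summit lay at 110696413 on chromosome 12 in CD93-positive replicate 2 (score 16.7, rank 57), against 110696461 in CD93-negative replicate 1 (score 103.0, rank 55) and 110696405 in CD93-negative replicate 2 (score 20.7, rank 143). These stood 18, 66 and 10 bp outside the upper end of the gene (110691036 to 110696395), within 56 bp of each other. In CD93-negative replicate 2, Hspa8 ranked higher.

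Hspa1a and Hspa1b, the inducible cytosolic HSP70 genes, lie 10120 bp apart on chromosome 17 and gave the weakest gene-end sites of the members in CD93-negative replicate 1. In CD93-positive replicate 2 the shared Hspd1 and Hspe1 site ranked lower than that of Hspa1b. Hspa1a (34969359 to 34972156) was listed at its start in CD93-negative replicate 1 alone, at 34972157 (score 11.8, rank 6030 of 7989), 1 bp outside the gene. This summit was also 546 bp from Hspa1l, a testis-enriched HSP70 gene. Hspa1b (34956429 to 34959238) was listed at 34959136 in CD93-positive replicate 2 (score 4.72, rank 642 of 711), against 34959198 in CD93-negative replicate 1 (score 23.0, rank 3568). Both were inside the gene, 102 and 40 bp from its start. CD93-negative replicate 2 held neither site.

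Among the 500 CD93-negative replicate 1 sites nearest to Hspa1b in rank, 17 (3.4%) had a CD93-positive replicate 2 summit within 250 bp and 30.0% had one in CD93-negative replicate 2. Hspa1b was thus listed in CD93-positive replicate 2, where few sites of its rank were. Most sites of its rank were, like Hspa1b, missing from CD93-negative replicate 2. For Hspa1a the shares were 0.8% and 12.6%. Reads from the identical stretches of the promoters cannot be told apart by sequence, and the sources used here do not say how reads with several matches were handled. The scores of both genes, and the assignment of a summit to Hspa1a or to Hspa1b, are therefore uncertain.

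**Figure D4:**
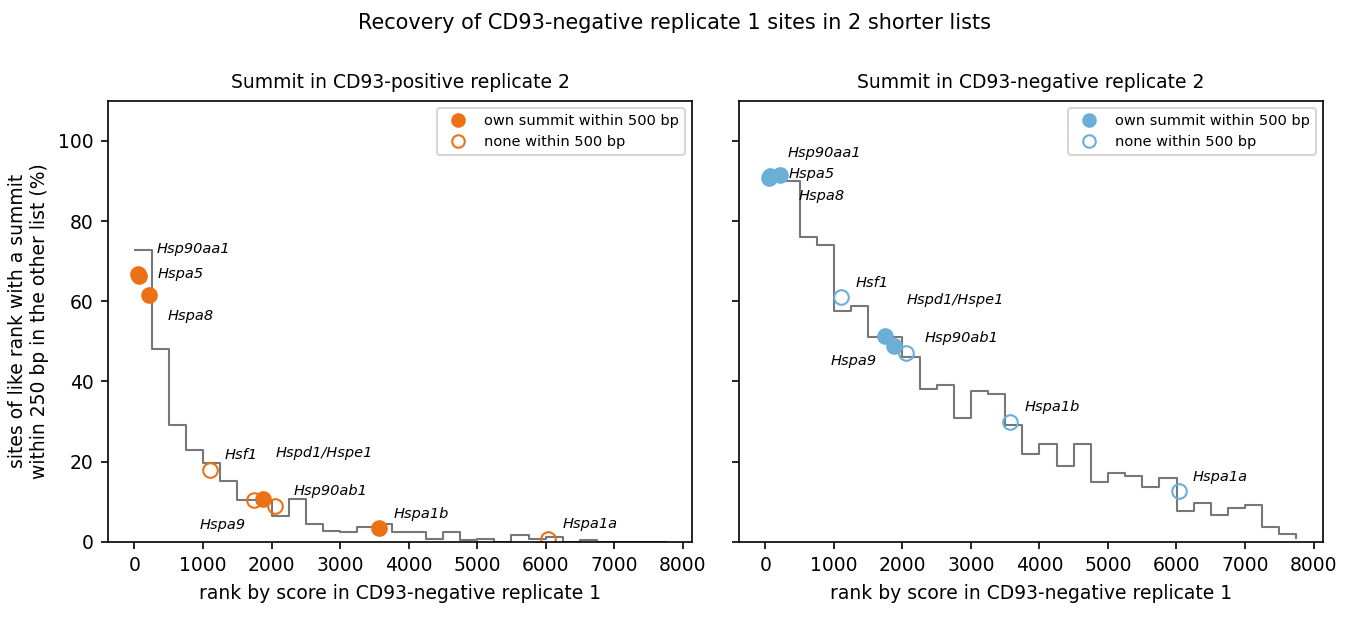
Grey steps give the percent of CD93-negative replicate 1 sites, in bins of 250 ranks, with a summit within 250 bp in CD93-positive replicate 2 (left) or CD93-negative replicate 2 (right). Circles place each member's gene-end site at its rank and at the same percent of its neighbours in rank. Neighbours numbered 500, but 304 for Hsp90aa1, 320 for Hspa5 and 456 for Hspa8. Filled circles mark members with an own summit within 500 bp in the other list. By this rule Hspd1 and Hspe1, at 293 bp, are filled on the left. Hspa1b is present on the left at 3.4% and missing on the right at 30.0%, while Hsf1 and Hsp90ab1 are missing from both.

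Hsf1, the regulator, was listed in CD93-negative replicate 1 alone, at 76477381 on chromosome 15 (score 47.3, rank 1100), 19 bp inside the lower end of the gene (76477362 to 76501155) and 132 bp outside Bop1, a ribosome biogenesis gene. Of its 500 neighbours in rank, 18% had a summit in CD93-positive replicate 2 and 61.0% in CD93-negative replicate 2. The nearest CD93-positive replicate 2 summit was 396731 bp away. Most sites of its rank were thus, like Hsf1, missing from CD93-positive replicate 2, while most were matched in CD93-negative replicate 2. With 61.0% matched there, many sites of its rank were also missing, so nothing particular to Hsf1 can be read.

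Hspa9, the mitochondrial HSP70 (mortalin), differed in which of 2 nearby sites was listed. At its upper end (chromosome 18, gene at 34937414 to 34954351), the CD93-positive libraries had no summit, against summits at 34954712 in CD93-negative replicate 1 (score 38.2, rank 1745) and 34954649 in CD93-negative replicate 2 (score 14.5, rank 573), which stood 361 and 298 bp outside. On the other side, 5333 to 5451 bp away, lay the site of Etf1, a translation release factor. That site was listed in CD93-positive replicate 2 (34932081, score 13.6, rank 101), against CD93-negative replicate 1 (34932042, score 128.0, rank 17) and CD93-negative replicate 2 (34931963, score 13.9, rank 639). It lay within 73 bp of an Etf1 end in every list. Of the 500 neighbours in rank of the Hspa9 site itself, 10.4% of those from CD93-negative replicate 1 and 34.0% of those from CD93-negative replicate 2 had a CD93-positive replicate 2 summit.

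The window edge decided 1 further case. The site inside Lsm2, an RNA-processing gene, fell just within 10 kb of Hspa1a, at 9743 bp in CD93-negative replicate 1 (34981899, score 18.2, rank 4468) and 9830 bp in CD93-negative replicate 2 (34981986, score 7.38, rank 1997), and was not in CD93-positive replicate 2. It is the reason why CD93-negative replicate 2 counted 7 members within 10 kb and 6 at gene ends. Just outside the window, the Hspa1b summits stood 10223 bp from Hspa1a in CD93-positive replicate 2 and 10161 bp in CD93-negative replicate 1. A Dgat1 end site stood 10809 and 10925 bp from Hsf1 in CD93-negative replicates 1 and 2.

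Constitutive and stress-induced members were set side by side, with the classes assigned by name and not measured here. Hspd1 and Hspe1 were placed among the constitutive genes, although their shared promoter held the run of 4 heat-shock units. Of the 6 constitutive genes (Hspa8, Hsp90ab1, Hspa5, Hspa9, Hspd1 and Hspe1), 4 had a gene-end summit in CD93-positive replicate 2, against 6 and 5 in CD93-negative replicates 1 and 2. Of the 3 stress-induced genes (Hsp90aa1, Hspa1a and Hspa1b), 2 had one in CD93-positive replicate 2, against 3 and 1 in CD93-negative replicates 1 and 2. The median place of the constitutive genes listed was the top 57.0% in CD93-positive replicate 2, against 22.7% and 18.1% in CD93-negative replicates 1 and 2. The summit shared by Hspd1 and Hspe1 entered these medians once for each gene. In CD93-positive replicate 2 the median lay between Hspa5 (top 21.2%) and that shared summit (top 92.7%), and depended on the double entry. The stress-induced genes ran from the top 8.02% (Hsp90aa1) to the top 90.3% (Hspa1b) in CD93-positive replicate 2, and from the top 0.688% (Hsp90aa1) to the top 75.5% (Hspa1a) in CD93-negative replicate 1. Hsp90aa1, which is also expressed without stress, thus stood apart from the HSP70 pair of its class. With 3 genes, of which 2 are near-identical, no difference between the classes can be read.

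At equal lengths of 711 summits, the gene ends of 6 members were reached in CD93-positive replicate 2, used whole, against 3 (Hspa8, Hspa5 and Hsp90aa1) and 6 in the shortened lists of CD93-negative replicates 1 and 2, which reached 3.28% and 3.38% of all genes. Of the 5 member sites of CD93-positive replicate 2, 4 matched a site of CD93-negative replicate 1 to within 250 bp and 3 matched CD93-negative replicate 2. Over all 711 sites of CD93-positive replicate 2 the matched shares were 97.2% and 82.4%. All 5 member sites of CD93-negative replicate 2 were matched in CD93-negative replicate 1, as were 92.9% of its 2755 sites. With 5 sites, none of these counts can be set apart from the share over all sites.

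The chaperone network beyond the members was taken from 9 lists of 122 genes, all matched to a symbol. In CD93-positive replicates 1 and 2, 0 (0%) and 13 (10.7%) had a gene-end summit, against 87 (71.3%) and 49 (40.2%) in CD93-negative replicates 1 and 2. The shares over all genes were 0.0183% and 3.22%, against 32.2% and 12.9%, in the same libraries. Their median place was the top 51.3% in CD93-positive replicate 2, against 27.5% and 34.0% in CD93-negative replicates 1 and 2, beside 53.2%, against 43.1% and 47.8%, for all genes with such a summit. The place in CD93-positive replicate 2 was thus near that of all genes. In CD93-positive replicate 2, against CD93-negative replicates 1 and 2, the counts were 3, against 11 and 7, of 11 ER chaperones. They were 4, against 21 and 7, of 33 HSP40 co-chaperones. They were 2, against 10 and 8, of 14 TRiC and prefoldin subunits, which fold actin and tubulin. HSP90 paralogs and co-chaperones had 2, against 12 and 6, of 14.

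Among HSP70 cofactors the counts were 1, against 11 and 7, of 12. Heat-shock factors and stress regulators had 1, against 6 and 5, of 12, and no factor of the HSF family was listed beside Hsf1. The list named cytosolic HSP70 and HSP110 chaperones had 0, against 7 and 5, of 9. Among the 7 was Hspa1l, reached by the summit at the Hspa1a start, 546 bp away, and thus by a member site. Mitochondrial chaperones and proteases had 0, against 8 and 3, of 8. Small heat-shock proteins had 0, against 1 and 1, of 9, and the gene listed was Hspb6. These counts, of 9 genes, are too small to be set apart from the shares of all genes.

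**Figure D5:**
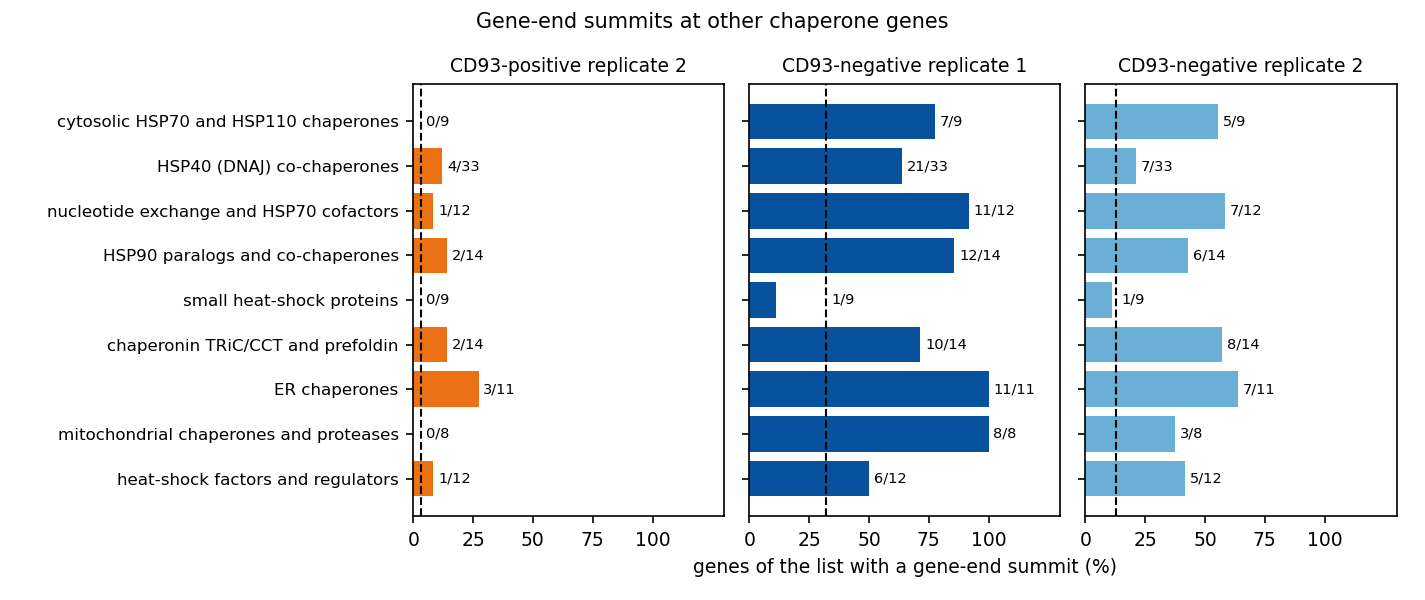
Bars give the percent of genes of each chaperone list with a gene-end summit in 3 libraries, with counts beside them, and the dashed line marks the share of all protein-coding genes in the same library. In CD93-negative replicate 1, 8 of the 9 lists stand above the line, and small heat-shock proteins have 1 of 9 genes. CD93-positive replicate 1 had none of the 122 genes and is not drawn.

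The 12 chaperone genes listed in the same 3 libraries as Hspa8, Hspa5, Hspd1, Hspe1 and Hsp90aa1 were Dnajb1, Dnajb4, Dnajb9, Dnajc3, Hspbp1, Unc45a, Cacybp, Tcp1, Cct2, Calr, Creld2 and Eif2ak3. They were 12 of 122, beside 2.78% of all genes with this pattern. Cacybp, which binds an E3 ubiquitin ligase complex, had a score of 21.7 (rank 33) in CD93-positive replicate 2, against 73.0 (rank 275) and 22.7 (rank 100) in CD93-negative replicates 1 and 2. Dnajb9, an ER co-chaperone of Hspa5, had 17.2 (rank 55), against 116.9 (rank 31) and 14.6 (rank 555). Dnajb1, the heat-inducible partner of cytosolic HSP70, had 11.2 (rank 169), against 112.1 (rank 36) and 18.4 (rank 250). In CD93-positive replicate 2, Cacybp and Dnajb9 ranked above every member.

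Calr, an ER lectin chaperone, had 10.1 (rank 232) in CD93-positive replicate 2, against 92.5 (rank 91) and 14.1 (rank 613) in CD93-negative replicates 1 and 2. Eif2ak3, the ER stress kinase PERK, had 12.7 (rank 124), against 50.2 (rank 937) and 12.4 (rank 865). Hyou1, an ER HSP110, was like Hspa1b in being listed in CD93-positive replicate 2 (8.07, rank 365) and CD93-negative replicate 1 (60.6, rank 530) only. Of the 7 genes with an ER stress element named above, 4 had a gene-end summit in CD93-positive replicate 2 (Hspa5, Calr, Dnajc3 and Creld2), against 7 and 6 in CD93-negative replicates 1 and 2. These 7 were grouped after their values had been seen, and they are the chaperones among the 29 protein-coding genes with the element. Of the other 22, a gene-end summit was listed for 1 (4.55%) in CD93-positive replicate 2, against 6 (27.3%) and 5 (22.7%) in CD93-negative replicates 1 and 2, beside 3.22%, against 32.2% and 12.9%, of all genes.

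Both CD93-negative libraries and no CD93-positive library listed 36 further chaperone genes of the 122, beside 9.95% of all genes. The highest by the lower of their places were Dnajb11, Pdia4, Stip1, Hspa14, P4hb, Ern1, Manf, Canx, Cct6a and Htra2. Dnajb11, another ER partner of Hspa5, had scores of 58.8 (rank 594) and 17.5 (rank 309) in CD93-negative replicates 1 and 2. Stip1, which links HSP70 to HSP90, had 46.4 (rank 1155) and 19.1 (rank 208). A further 38 of the 122 were listed in CD93-negative replicate 1 alone, beside 19.0% of all genes. Among the 38 were Hspa4, Bag3, an HSP70 cofactor induced by stress, and the HSP90 co-chaperones Ahsa1 and Cdc37. In no library was a gene-end summit listed for 34 of the 122, among them Hspb1, Cryab and Hsf2. The share of all genes listed in no library was not computed.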

How the data were processed

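ATAC-seq summit lists of 4 libraries were used. The submitters' processing notes name Bowtie2, MACS2 and the build mm10. Their versions, the filters on reads, a Tn5 shift and the threshold for calling are not given in the sources consulted. Each deposited list covers 1 library. Its deposited score was read as −log10 of a p-value or q-value, without a statement of which. Groups and replicate numbers follow the sample titles. The numbers inside the summit names differ (2 and 3 in the CD93-positive lists, 1 and 3 in the CD93-negative lists).

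Genes were placed with RefSeq positions on GRCm38.p6 (mm10). It holds no strand, so a gene-end summit is one within 1000 bp of either end, and starts are given only where the promoter table lists them. Positions are 1-based. Summits within 250 bp were called shared. Ranks run from the highest score, and rank neighbours are the 250 sites on either side (fewer at the top of a list). The members and gene lists were chosen with earlier results of these data known, so counts and positions are descriptions without tests. Named genes were the members, the genes nearest their summits, chaperone-list genes whose ends carried a summit of a CD93-positive library, and the 10 highest of those with summits of both CD93-negative libraries only; the text gives examples. Genes given as examples of 1-library or absent sites, and promoter motif genes, were picked after their values were seen. Alternatives were other windows (500, 2500 and 5000 bp, gene body alone), score minimums of 5 and 10, equal list lengths, sharing distances of 100, 500 and 1000 bp, each library left out and a replicate block. Protein identities were planned and are not reported. Window, distance and motif steps were tested on simulated data. Python 3.11.15, numpy 2.4.6, pandas 2.3.3 and matplotlib 3.10.9 were used.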

Additional observations from a re-analysis of the deposited data

How the results depend on the processing

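Of the 63 alternative values of the member counts, 54 stayed within 1.5 times the reported count, or within the spread between replicates for group differences. Some of the 54 could not have moved. These were all values of CD93-positive replicate 1, which held 0 members throughout, and the equal list length in CD93-positive replicate 2, whose list was used whole. The spread for group differences was wide, so the tally is no measure of robustness. With the gene body alone, 2 members were counted in CD93-positive replicate 2, against 3 and 2 in CD93-negative replicates 1 and 2. With a score of at least 5 or at least 10, CD93-positive replicate 2 held 4 members within 10 kb and 3 at gene ends, because the sites of Hspa1b and of Hspd1 and Hspe1 scored under 5. At equal list lengths, CD93-negative replicate 1 held 4 members within 10 kb and 3 at gene ends. The difference in mean number of members, CD93-positive minus CD93-negative, was -5 in both windows and kept its sign when each library was left out in turn, from -8.5 to -1.5 within 10 kb and from -8 to -2 at gene ends. Both extremes came from leaving out a CD93-positive library. The difference was not computed at equal list lengths, so the kept sign holds only for lists of unequal length. At 711 summits, 6 members were reached at gene ends in CD93-positive replicate 2, against 3 and 6 in CD93-negative replicates 1 and 2. Blocking by replicate number gave the same mean of -5 in both windows, from within-number differences of -10 and 0 (SD 7.07, 2 numbers). Nothing in the labels says that the numbers pair the libraries. No read depth is given, so a missing summit does not show closed chromatin.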
